A study of Mus musculus with 11 samples.

Results

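The genes described here code for the enzymes that cut the extracellular matrix, for the lysosomal cathepsins and for the inhibitors of both. They were taken by symbol from the annotation of the array: every probe set with a single gene was kept if that symbol began with Mmp, Timp or Adam and a digit, with Adamts, Serpin or Cts, or was Plat, Plau, Plaur or Cst3. The rule gave 97 probe sets of 74 genes, out of 12422 probe sets and 8251 genes with a single-gene probe set on the array. Another 6 probe sets carried a fitting symbol beside other genes and were left out. A match by symbol also takes in members that do not cut or protect matrix: Adam2, Adam3, Adam4, Adam5 and Adam7 are known as proteins of sperm and the male tract, Serpina6 carries glucocorticoids in blood, Serpinh1 folds collagen, and Serpinf1 is a secreted serpin that inhibits no protease.

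The arrays measured total RNA of 3T3-L1 cells, a mouse fibroblast line that can be turned into fat cells. Cells had been given 20 µM pioglitazone (2 arrays), 1 µM rosiglitazone (3 arrays), 20 µM troglitazone (3 arrays) or the vehicle, 0.1% DMSO (3 arrays), each for 24 h. The titles divide the arrays into set 1, with replicates 1 and 2 of all 4 groups, and set 2, with replicate 4 of rosiglitazone, troglitazone and vehicle. The labels state neither whether the cells had been differentiated nor whether replicates were separate cultures, so p-values measure only the spread between these arrays, which may be technical. All of them are thiazolidinediones and bind PPARγ, a nuclear receptor that drives fat cell genes.

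Matrix metalloproteinases are zinc enzymes, secreted or held in the plasma membrane, that cut collagens and other matrix proteins, and the Timp proteins block them. The plasminogen activators Plat and Plau turn plasminogen into plasmin, a broad protease of matrix and fibrin, and several serpins trap these and other serine proteases. Cathepsins digest proteins in lysosomes and, when secreted, outside the cell, where cystatin C, the product of Cst3, inhibits the cysteine cathepsins. As fibroblasts become fat cells their fibrous matrix is replaced by a basement membrane, and proteases of these families are known to take part.

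Each value below is the deposited signal, a linear intensity that the authors had scaled to a common trimmed mean on every array. A floor of 73.7, the 25th percentile over all arrays, replaced any lower signal before logarithms were taken. Testing asked for 2 or more arrays above this floor, which held for 11739 of 12422 probe sets. The median signal ran from 163.1 to 244.2 over the 11 arrays, and 13.7% to 29.2% of the tested probe sets lay at the floor of an array. Array pairs correlated at 0.82 to 0.945 on the log2 scale. The array of rosiglitazone replicate 2 stood apart, with the lowest median correlation to the others, 0.833. The 3' to 5' signal ratio of the beta-actin controls, a measure of RNA integrity, lay between 1.91 and 4.86 with pioglitazone, 2.09 and 3.74 with rosiglitazone, 1.79 and 3.79 with troglitazone and 2.23 and 3.90 with vehicle. The ratio differed between the sets: it was 3.74 to 3.90 on the 3 arrays of set 2, and 1.79 to 2.27 on those of set 1 other than pioglitazone replicate 2, which had 4.86. Member calls were also made without the arrays of rosiglitazone replicate 2 and pioglitazone replicate 2, and calls lost there are given. Most single differences below are given with these arrays only.

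The label of the cells was checked against marker genes. All 7 measured adipocyte markers, Adipoq, Fabp4, Lpl, Retn, Lipe, Slc2a4 and Cidec, were above the floor on all 11 arrays, as were 6 of 8 preadipocyte and fibroblast markers. Of 8 macrophage markers 3 were above it throughout (Csf1r, Cd14 and Laptm5). Of the others, Fcgr3 was above it on 8 of 11 arrays, Cd68 on 7, Tyrobp on 5, and Adgre1 and Ptprc on 3 each. None of 4 mast cell and none of 4 endothelial markers was above it throughout. Of 4 epithelial markers 3 were (Krt8, Krt18 and Cdh1), and of 4 smooth muscle markers 1 was (Tagln). A signal above the floor therefore does not by itself mark a cell type. The levels differed between the lists. On the vehicle arrays the mean signal of the adipocyte markers ran from 2205.5 (Slc2a4) to 46879.8 (Adipoq). Of the markers above the floor throughout, the preadipocyte and fibroblast ones ran from 255.3 (Pdgfra) to 2269.7 (Col1a2). The macrophage ones ran from 187.2 (Laptm5) to 1283.4 (Cd14), the epithelial ones from 173.4 (Krt8) to 719.2 (Cdh1), and Tagln was at 193.4. The summed signal of the macrophage markers was 2869.7 to 4757.8 with pioglitazone, 1655.8 to 4227.2 with rosiglitazone, 1856.4 to 2875.6 with troglitazone and 2171.6 to 3957.6 with vehicle.

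Of the 97 member probe sets 90, from 70 genes, were tested. The other 7 lay above the floor on at most 1 array, and Adamts1, Mmp10, Mmp24 and Serpinb5 have no other probe set. Many tested members were dim: 26 lay above the floor on 5 or fewer arrays and 32 on 6 to 10, so 32 were above it on all 11. A mean signal of at least 147.4, which is 2 times the floor, was reached by 39 member probe sets of 35 genes. These are called the brighter members below, a division made after the values had been seen. The remaining 51 lay nearer the floor, which limits how far a fall in them could be seen.

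Few members changed. With troglitazone Mmp11 and Serpinf1 rose and Cst3 fell, which makes 3 of 90 tested member probe sets at an adjusted p under 0.05 (limma, Benjamini-Hochberg over all tested probe sets), against 1.33% of all tested probe sets (0.775% higher, 0.554% lower). With rosiglitazone Cst3 alone fell, 1 of 90, against 1.35% of all (0.784% higher, 0.571% lower). With pioglitazone 0 of 90 passed, against 0.903% of all. The mean of the 3 drugs against vehicle called the same 3 genes as troglitazone, 3 of 90, against 2.14% of all (1.28% higher, 0.86% lower). Counts of 0 to 3 are too small for anything about the families as a whole to be read from them. The split of all calls into higher and lower depended on scaling: with pioglitazone it was 74 and 32 as deposited, 40 and 42 after quantile normalisation and 123 and 18 after median centring. With troglitazone it was 91 and 65, 72 and 69, and 108 and 47 in the same order, and for the mean of the 3 drugs 150 and 101, 106 and 103, and 180 and 74.

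Without adjustment 10 members had a p under 0.05 with pioglitazone (2 higher, 8 lower, against 9.85% of all, 4.84% higher and 5.01% lower) and 13 with rosiglitazone (5 higher, 8 lower, against 10.5%, 5.16% and 5.35%). The corresponding counts were 4 with troglitazone, against 8.32% of all, and 10 for the mean of the 3 drugs, against 10.5%. Of 90 members 2 were higher on every drug array than on any vehicle array, against 1.29% of all tested probe sets, and 3 were lower, against 1.94%. The higher ones were Mmp11 and Serpinf1, and the lower ones were 1 probe set of Cst3 and 2 of Ctsb.

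**Figure D1:**
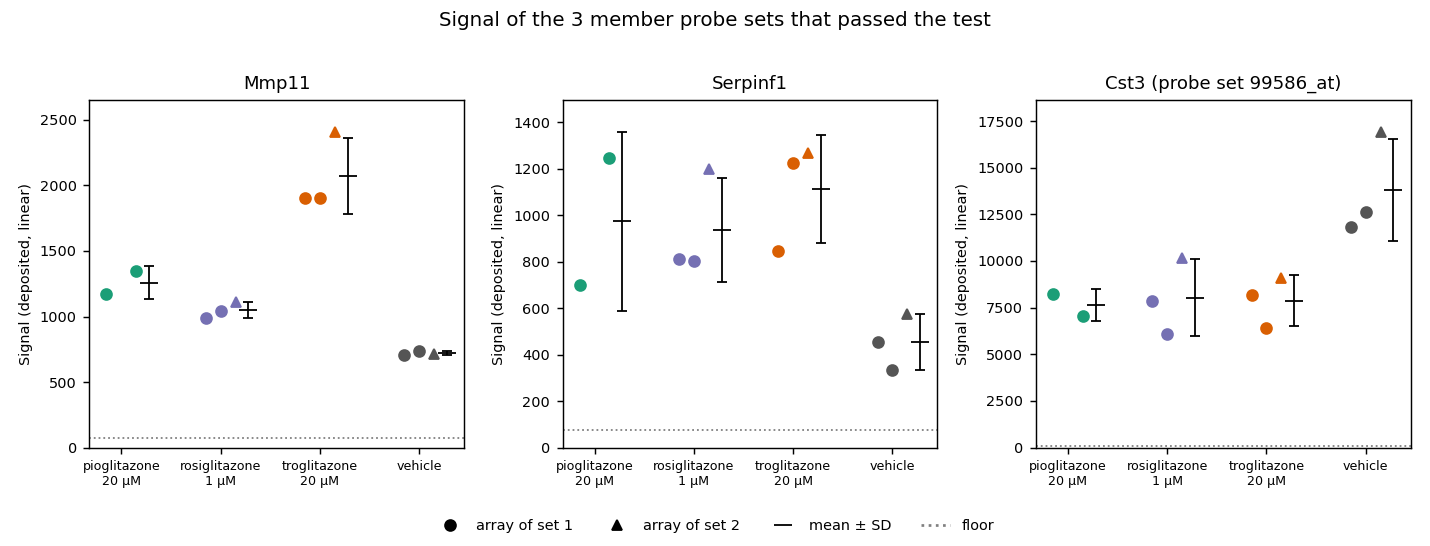
Deposited signal (linear) of Mmp11, Serpinf1 and Cst3 on each array, by group. Circles are arrays of set 1, triangles arrays of set 2, horizontal bars the mean with SD, and the dotted line the floor of 73.7. Every drug array lies above every vehicle array for Mmp11 and Serpinf1 and below every vehicle array for Cst3, and the 3 troglitazone arrays are the highest for Mmp11.

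Mmp11, stromelysin-3, is a secreted metalloproteinase of stromal fibroblasts with little known action on the classical matrix proteins. Its signal was 1168.3 and 1349.2 on the pioglitazone arrays, 991, 1044.7 and 1112.9 on the rosiglitazone arrays, 1905, 1903 and 2410.9 on the troglitazone arrays, and 705.9, 739.5 and 714.5 on the vehicle arrays. The 4 groups did not overlap, in the order troglitazone, pioglitazone, rosiglitazone and vehicle. The vehicle arrays were the tightest group, at 720 ± 17.5 (SD, n = 3), beside 2073 ± 292.7 with troglitazone (SD, n = 3). The rise with troglitazone was 2.86-fold (95% interval 2.17 to 3.77), a log2 difference of 1.52 ± 0.19 (SE) with a limma adjusted p of 0.000297. Against vehicle the log2 difference was 0.85 ± 0.22 with pioglitazone and 0.54 ± 0.19 with rosiglitazone, and neither passed (limma adjusted p of 0.0939 and 0.254), although the pioglitazone difference passed after median centring (0.0397) and with no filter on dim probe sets (0.0398). Within set 1 the difference was 0.80 with pioglitazone, 0.49 with rosiglitazone and 1.40 with troglitazone, and within set 2, with 1 array a group, 0.64 with rosiglitazone and 1.75 with troglitazone. The call with troglitazone held in all 11 fits that left out an array and all other alternatives, with limma adjusted p between 0.000297 and 0.0424. For the mean of the 3 drugs the log2 difference of Mmp11 was 1.04 (limma adjusted p = 0.00275), a call lost with set 1 alone and with no intensity trend.

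Serpinf1 codes for pigment epithelium-derived factor, a secreted protein known to block blood vessel growth and to be released by fat cells. Its brighter probe set had signals of 699.3 and 1246 with pioglitazone, 809.6, 803.7 and 1196.3 with rosiglitazone, 843.7, 1223.4 and 1269 with troglitazone, and 454.4, 335.6 and 573.5 with vehicle. The 3 drug groups overlapped one another, and each lay above the vehicle arrays. The rise with troglitazone was 2.46-fold (95% interval 1.65 to 3.68), or 1.30 ± 0.27 on the log2 scale (limma adjusted p = 0.025). The log2 difference was 1.23 ± 0.31 with pioglitazone and 1.05 ± 0.27 with rosiglitazone, not passing at limma adjusted p of 0.0962 and 0.0825, although the pioglitazone difference passed after median centring (0.0486). Within set 1 and set 2 it was 1.38 and 1.15 with troglitazone and 1.05 and 1.06 with rosiglitazone. A dimmer probe set of the gene, an _r_at one, did not show this pattern. Its log2 differences were 1.21 with pioglitazone, -0.70 with rosiglitazone and 0.04 with troglitazone, none passing. The call with troglitazone was lost without any of the 3 troglitazone arrays (limma adjusted p of 0.0657, 0.187 and 0.129 without replicates 1, 2 and 4), without any of the 3 vehicle arrays (0.0607, 0.145 and 0.117), and without rosiglitazone replicate 1 (0.0541) or 4 (0.0568). It was also lost with set 1 alone, without the set term, without the intensity trend, with only the groups compared and with dim probe sets kept in, at 0.0759 to 0.317. For the mean of the 3 drugs Serpinf1 rose by 1.20 on the log2 scale (limma adjusted p = 0.00933). This call was lost without vehicle replicate 2 (0.0981) or 4 (0.0604) and without rosiglitazone and pioglitazone replicates 2 together (0.0501). It was also lost with no set term, with set 1 alone and with no intensity trend.

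Cst3 codes for cystatin C, the secreted inhibitor of cysteine cathepsins. The signal of its brighter probe set was 8229 and 7043.1 with pioglitazone, 7832, 6096.9 and 10184 with rosiglitazone, 8160.3, 6385.5 and 9078 with troglitazone, and 11835.5, 12608.8 and 16933.6 with vehicle. The drug groups overlapped one another and lay below the vehicle arrays. Cst3 fell 1.75-fold with troglitazone, a log2 difference of -0.81 ± 0.14 (limma adjusted p = 0.00617), and 1.73-fold with rosiglitazone, -0.79 ± 0.14 (limma adjusted p = 0.00868). With pioglitazone the difference was -0.69 ± 0.16, with a limma adjusted p of 0.0632, and it passed after quantile normalisation (-0.96, 0.00572). Within set 1 and set 2 it was -0.76 and -0.90 with troglitazone and -0.82 and -0.73 with rosiglitazone. The other probe set, an _i_at one, had differences of -0.42 with pioglitazone, -0.19 with rosiglitazone and -0.41 with troglitazone, none passing. The call with troglitazone was lost without troglitazone replicate 2 (limma adjusted p = 0.059) or 4 (0.093) and without vehicle replicate 2 (0.0555) or 4 (0.0625). The call with rosiglitazone was lost without rosiglitazone replicate 2 (0.0721, or 0.1 with pioglitazone replicate 2 left out too) and without vehicle replicate 2 (0.0661) or 4 (0.0746). Both were also lost with set 1 alone, without the set term, without the intensity trend, with only the groups compared and with dim probe sets kept in, at 0.0508 to 0.322 with troglitazone and 0.0527 to 0.3 with rosiglitazone. For the mean of the 3 drugs the log2 difference of Cst3 was -0.76 (limma adjusted p = 0.00184). That call was lost with no set term, with set 1 alone and with no intensity trend.

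The summed signal of the preadipocyte and fibroblast markers, like that of Cst3, was lower on every drug array than on any vehicle array. It was 5702.7 to 5978.2 with pioglitazone, 6230.4 to 7645.6 with rosiglitazone, 4345.2 to 6715.4 with troglitazone and 9072.7 to 9278.4 with vehicle. On the vehicle arrays most of it came from Col1a1, Col1a2, Col3a1 and Dlk1, with mean signals of 1943.7, 2269.7, 1979.4 and 1780.2. Of the 8 markers 0 passed with pioglitazone, 0 with rosiglitazone and 2 with troglitazone, where Col1a1 and Col3a1 fell. The summed signal of the adipocyte markers overlapped between all groups, at 102403 to 118534 with pioglitazone, 98634.2 to 135771 with rosiglitazone, 81643.3 to 110862 with troglitazone and 94422.1 to 119026 with vehicle. Of the 7, 1 passed with pioglitazone and 2 each with rosiglitazone and troglitazone: Cidec, a lipid droplet protein, rose with each drug, and Retn, resistin, fell with rosiglitazone and troglitazone. Of the 8 macrophage markers 1, Cd14, fell with troglitazone. In such bulk RNA fewer cells of a type and less RNA per cell cannot be told apart, and the part of either in the fall of Cst3 was not tested.

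The sequences upstream of these 3 genes are shown because they were the members that passed. Each is the 250 bases before the RefSeq start in assembly GRCm38.p6, read on the minus strand, at chr10:75932503-75932752 for Mmp11, chr11:75422624-75422873 for Serpinf1 and chr2:148875513-148875762 for Cst3. Capitals mark AGGTCA, the core letters that nuclear receptors such as PPARγ are known to bind, and GGGCGG, the core letters of an Sp1 box, on either strand. On the opposite strand AGGTCA reads TGACCT.
Mmp11: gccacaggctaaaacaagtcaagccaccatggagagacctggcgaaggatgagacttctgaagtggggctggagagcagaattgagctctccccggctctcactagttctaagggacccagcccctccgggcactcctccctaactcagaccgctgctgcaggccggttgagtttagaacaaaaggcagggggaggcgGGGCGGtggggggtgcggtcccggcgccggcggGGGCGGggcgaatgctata
Serpinf1: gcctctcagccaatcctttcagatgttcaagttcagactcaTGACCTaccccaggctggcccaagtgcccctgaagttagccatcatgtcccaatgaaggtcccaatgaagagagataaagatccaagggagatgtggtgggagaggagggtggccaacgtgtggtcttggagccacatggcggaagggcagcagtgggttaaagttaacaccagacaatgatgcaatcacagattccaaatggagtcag
Cst3: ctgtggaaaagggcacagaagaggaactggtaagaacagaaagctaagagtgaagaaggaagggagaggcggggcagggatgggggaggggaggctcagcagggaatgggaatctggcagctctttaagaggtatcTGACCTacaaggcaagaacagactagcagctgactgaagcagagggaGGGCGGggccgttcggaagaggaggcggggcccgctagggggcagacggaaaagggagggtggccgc
The window of Mmp11 holds GGGCGG at 52 and 19 bases before the start and no AGGTCA. That of Serpinf1 holds AGGTCA on the opposite strand at 209 bases, and that of Cst3 holds it on the opposite strand at 114 bases and GGGCGG at 67 bases. Over 32851 RefSeq windows of the same length AGGTCA was found in 14% and GGGCGG in 32.7%. The spaced repeat of AGGNCA with 1 base between the copies, the form of a PPARγ element, was in 0.3% of windows and TATAAA in 12.4%, and neither was in these 3. CCAAT was in 33.8% of all windows and occurred 3 times in that of Serpinf1, at 241, 160 and 148 bases before the start. No marked or listed matches overlap one another. GC content was 63.2% for Mmp11, 51.6% for Serpinf1 and 59.6% for Cst3, against a median of 52.4% over all windows.

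Among the matrix metalloproteinases Mmp11 was the sole probe set of 13 tested to pass. The median log2 difference of the 13 was -0.06 with pioglitazone, -0.04 with rosiglitazone and -0.08 with troglitazone, near the -0.08, 0 and -0.03 of all tested probe sets. Mmp14, the membrane-bound collagenase needed for fat tissue growth in mice, was measured well above the floor. Its signal was 993.7 and 580.1 with pioglitazone, 923.1, 827.8 and 601.9 with rosiglitazone, 480.9, 778.8 and 592.4 with troglitazone, and 1213.2, 808.1 and 740.6 with vehicle. These ranges overlapped, with log2 differences of -0.36 ± 0.34, -0.22 ± 0.29 and -0.57 ± 0.29. Mmp17, a membrane-anchored enzyme, had log2 differences of 0.68 ± 0.73, 1.31 ± 0.63 and 1.13 ± 0.63 in the same order of drugs, with single arrays between 65.5 and 479.9. The gelatinases Mmp2 and Mmp9, the stromelysin Mmp3 and the collagenase Mmp13 stayed near the floor, above it on 3 to 5 arrays with each tested probe set, and their levels were not measurable here.

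The Timp genes, whose products inhibit the metalloproteinases, gave 5 tested probe sets and 0 calls with each drug. Timp1 had signals of 1736.8 and 1227.2 with pioglitazone, 1837.2, 1859.2 and 1357.9 with rosiglitazone, 1549.2, 1834.9 and 1027.4 with troglitazone, and 287.2, 1503.4 and 1231.6 with vehicle. Vehicle replicate 1 was far below the other vehicle arrays, whose values of 1503.4 and 1231.6 lie inside the range of the drug arrays. The log2 differences of this Timp1 probe set were 0.82 ± 0.53, 1.04 ± 0.46 and 0.82 ± 0.46. The other Timp1 probe set, an _r_at one above the floor on 4 arrays, had -0.56 with pioglitazone and -0.05 with troglitazone. Timp2, which also helps Mmp14 activate Mmp2, was read by a probe set among the brighter members, although its signals were low. They were 82.9 and 79.9 with pioglitazone and 391.2, 351.9 and 117.3 with rosiglitazone. With troglitazone they were 268.8, 430 and 188.4, and with vehicle 126.8, 94.9 and 238.1. The log2 difference of this Timp2 probe set was -0.96 with pioglitazone and 0.98 with troglitazone. The other Timp2 probe set, an _i_at one above the floor on 2 arrays, had 0.30 and 0.29. Timp3, a matrix-bound inhibitor, ran from 17.4 to 200.6 over the arrays with no order between groups.

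**Figure D2:**
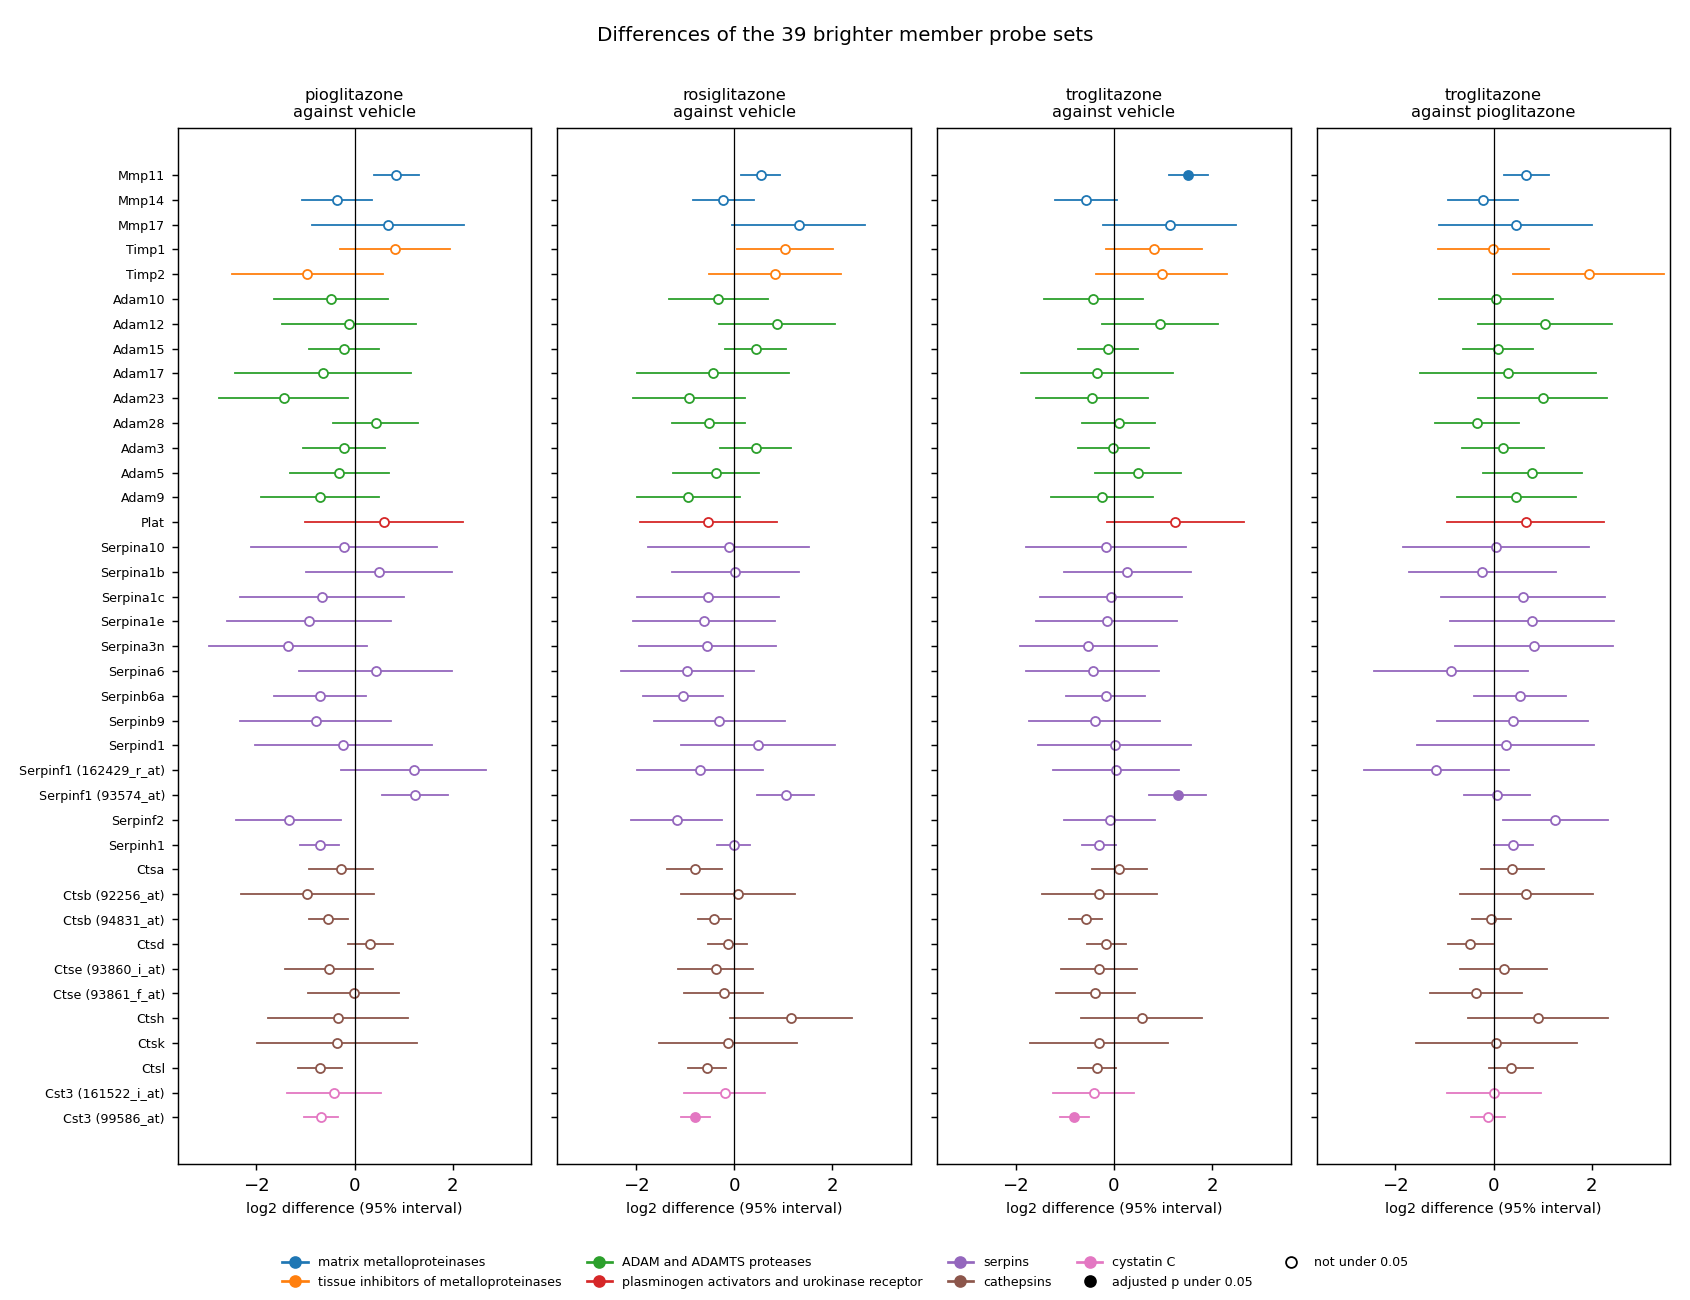
Log2 difference (x axis, with 95% interval) of each of the 39 brighter member probe sets (y axis, in role order) for each drug against vehicle and for troglitazone against pioglitazone. Filled points have an adjusted p under 0.05, which are Cst3 with rosiglitazone and Mmp11, Serpinf1 and Cst3 with troglitazone, and open points do not; colours give the role.

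The ADAM genes code for membrane-bound proteins, of which Adam10 and Adam17 are metalloproteinases known to release growth factors and receptors from the cell surface. Adamts1, the only ADAMTS gene that the rule gave, was not tested, so all values here are of ADAM genes. They include Adam2, Adam3, Adam4, Adam5 and Adam7, the members known from sperm and the male tract. None of 20 tested probe sets passed with any of the drugs, and their median log2 difference was -0.26 with pioglitazone, 0.14 with rosiglitazone and 0.02 with troglitazone. The brighter probe set of Adam10 had log2 differences of -0.48 ± 0.54, -0.32 ± 0.47 and -0.42 ± 0.47. Adam17 ranged from 112.6 to 606.8 over the troglitazone arrays alone, wider than from 220.1 to 396.6 over the vehicle arrays. Adam12, linked to fat cell formation in mice, had signals of 97.4 and 213.5 with pioglitazone, 188.2, 427.9 and 363.5 with rosiglitazone, 283.4, 323.8 and 365.5 with troglitazone, and 115.6, 207.1 and 200.8 with vehicle. Its troglitazone arrays lay above its vehicle arrays, with a log2 difference of 0.93 ± 0.55 that did not pass (limma adjusted p = 0.735). Adam15 had log2 differences of -0.22 ± 0.33, 0.43 ± 0.29 and -0.12 ± 0.29, and Adam9 of -0.71 ± 0.56, -0.93 ± 0.49 and -0.24 ± 0.49. Adam19 was above the floor on 3 arrays. Over all 20 probe sets the log2 difference ran from -1.44 to 0.57 with pioglitazone, from -1.27 to 0.87 with rosiglitazone and from -1.18 to 0.93 with troglitazone.

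None of the 3 plasminogen system members passed. Plat, tissue plasminogen activator, had signals of 222.4 and 270.8 with pioglitazone, 84.3, 150.5 and 72.4 with rosiglitazone, 301.7, 416 and 299.8 with troglitazone, and 68.4, 419.6 and 90.6 with vehicle. The rosiglitazone and troglitazone arrays did not overlap, but vehicle replicate 2 was higher than any of them. Plau, urokinase, averaged a log2 difference of -1.18 ± 0.58 with pioglitazone, -1.23 ± 0.50 with rosiglitazone and -0.84 ± 0.50 with troglitazone, from signals of 52.1 to 172.2 on the drug arrays and 159.1 to 276.7 on the vehicle arrays. Its limma adjusted p was 0.537, 0.366 and 0.741. The urokinase receptor, Plaur, was above the floor on 6 arrays.

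Of 26 tested serpin probe sets Serpinf1 was the single one to pass, with troglitazone and for the mean of the 3 drugs. The median log2 difference of the 26 was -0.22 with pioglitazone, -0.15 with rosiglitazone and -0.12 with troglitazone. Serpinh1, the collagen chaperone Hsp47 of the endoplasmic reticulum, had signals of 1316.4 and 1493.7 with pioglitazone, 2474.4, 2219.3 and 1473.2 with rosiglitazone, 1891.9, 1849.8 and 1246 with troglitazone, and 2098.3, 2330.8 and 1697.4 with vehicle. The array of set 2 was the lowest in each group that had one, and both pioglitazone arrays lay below the vehicle arrays. The log2 difference was -0.71 ± 0.19 with pioglitazone (limma adjusted p = 0.11, passing with no filter on dim probe sets), -0.01 ± 0.16 with rosiglitazone and -0.31 ± 0.16 with troglitazone. Serpinb6a, an intracellular inhibitor, had log2 differences of -0.71 ± 0.44, -1.04 ± 0.38 and -0.17 ± 0.38, and none passed. Serpinf2, alpha 2-antiplasmin, was read by its brighter probe set, an _r_at one, at 253.9 and 454.1 with pioglitazone, 731.2, 187.8 and 291 with rosiglitazone, 934.5, 843.5 and 486.6 with troglitazone, and 700.5, 939.6 and 689.2 with vehicle. Its log2 differences were -1.34 ± 0.50, -1.17 ± 0.43 and -0.08 ± 0.43, none passing, and the other probe set of the gene was near the floor with values of 0.23, 0.21 and 0.15. Serpina3n, known in mice as an inhibitor of granzyme B, ran from 81.4 to 569.4 over the troglitazone arrays, a range that covered every vehicle array. Serping1, the C1 inhibitor, was above the floor on 8 arrays with differences of 0.09, -0.06 and -0.67. Serpinb9, an inhibitor of granzyme B inside cells, had differences of -0.79 ± 0.72, -0.30 ± 0.62 and -0.39 ± 0.62, and Serpini1 was above the floor on 3 arrays. Over all serpin probe sets the log2 difference ran from -1.35 to 1.23 with pioglitazone, from -1.17 to 1.05 with rosiglitazone and from -1.01 to 1.30 with troglitazone. The Serpina1 genes are near-identical copies, and the probe sets of Serpina1b, Serpina1c and Serpina1e cannot be assigned to 1 copy with certainty.

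Cathepsins gave 21 tested probe sets of 14 genes and 0 calls with each drug, with medians of -0.28 with pioglitazone, -0.15 with rosiglitazone and -0.21 with troglitazone. Ctsb, a cysteine protease of lysosomes and one of the targets of cystatin C, was bright. Its main probe set had signals of 6227.3 and 4975 with pioglitazone, 5309.7, 7221.5 and 6454.3 with rosiglitazone, 4826.8, 6318.5 and 5710.2 with troglitazone, and 7267.2, 8166.7 and 9697.7 with vehicle. Every drug array lay below the vehicle arrays, although the highest rosiglitazone array came close to the lowest vehicle array. The log2 difference was -0.53 ± 0.18 with pioglitazone, -0.41 ± 0.16 with rosiglitazone and -0.57 ± 0.16 with troglitazone, none passing (limma adjusted p of 0.269, 0.336 and 0.119). For the mean of the 3 drugs it was -0.50 ± 0.13 with a limma adjusted p of 0.0711, and this passed after quantile normalisation, where the difference was -0.67. A dimmer Ctsb probe set was at 42.5 to 200.6 on the drug arrays and 239.6 to 347.7 on the vehicle arrays. In the next brightest after the main one the rosiglitazone and troglitazone arrays overlapped the vehicle arrays, while the pioglitazone arrays, at 139.8 and 205, lay below the lowest vehicle array at 207.2. The dimmest lay near the floor.

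Ctsl, another cysteine cathepsin, had signals of 2894.7 and 2211.7 with pioglitazone, 3104.5, 2785.4 and 2276.4 with rosiglitazone, 3097.9, 2793.2 and 3432.6 with troglitazone, and 3755.7, 5045.5 and 3237.5 with vehicle. The pioglitazone and rosiglitazone arrays lay below the vehicle arrays, and the troglitazone arrays overlapped them. The log2 difference was -0.70 ± 0.21, -0.55 ± 0.18 and -0.35 ± 0.18 in that order, with limma adjusted p of 0.174, 0.232 and 0.672. Ctsd, an aspartic protease that cystatin C does not inhibit, was at 8012 ± 1238 with pioglitazone (SD, n = 2), 5884 ± 850.7 with rosiglitazone, 5898 ± 1637 with troglitazone and 6392 ± 82.6 with vehicle (SD, n = 3 each), with log2 differences of 0.32, -0.13 and -0.16. Ctsa, a carboxypeptidase that also shields other lysosomal enzymes, was at 466.1, 980.7 and 1383.5 with rosiglitazone, against 1536.3, 1071.4 and 2054.8 with vehicle. Its log2 difference there was -0.81 ± 0.26 (limma adjusted p = 0.218), beside -0.27 ± 0.30 with pioglitazone and 0.11 ± 0.26 with troglitazone. Ctsk, the collagen-cutting cathepsin of osteoclasts and fat tissue, ranged over all groups from 109.2 to 483.7 without order. Ctsh, a lysosomal aminopeptidase, had scattered signals, with log2 differences of -0.34 ± 0.67, 1.15 ± 0.58 and 0.56 ± 0.58. The brightest Ctse probe set, an _i_at one for an aspartic protease, had -0.52 ± 0.42, -0.38 ± 0.36 and -0.31 ± 0.36. Ctsc, Ctss, Ctsw and Ctsz were not among the brighter members. Over all cathepsin probe sets the log2 difference ran from -2.0 to 0.45 with pioglitazone, from -1.60 to 1.15 with rosiglitazone and from -0.99 to 0.56 with troglitazone.

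**Figure D3:**
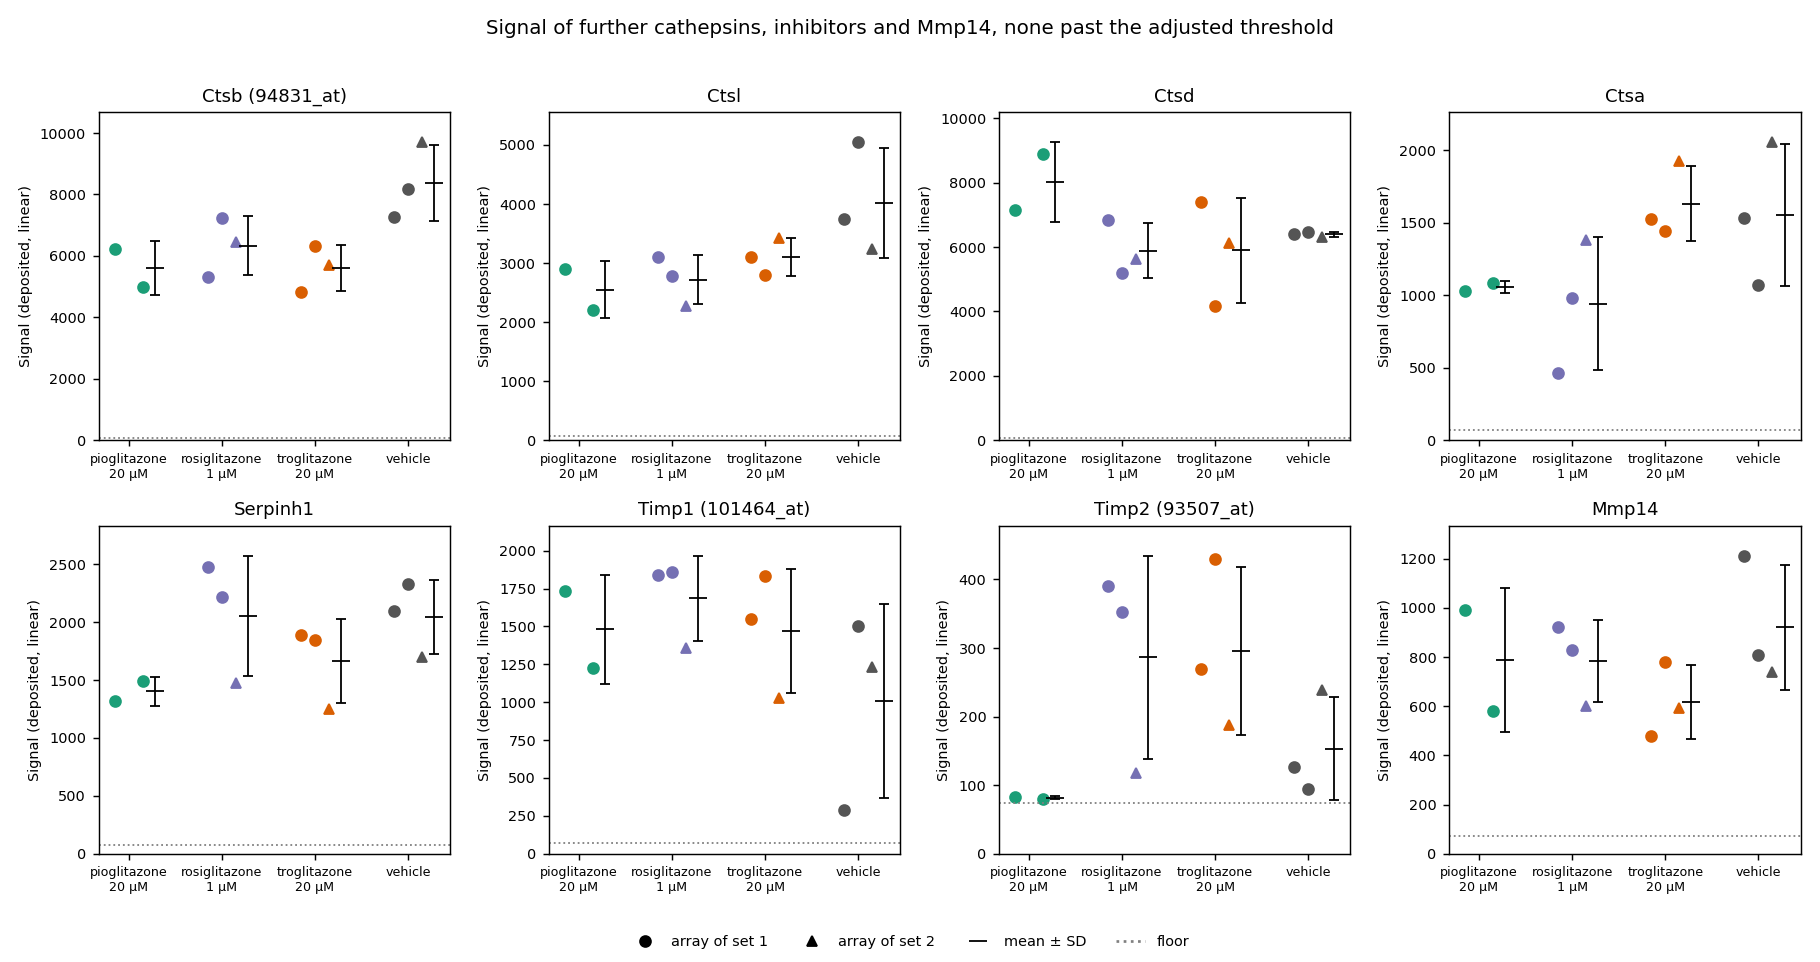
Deposited signal (linear) of 4 cathepsins, Serpinh1, Timp1, Timp2 and Mmp14 on each array, by group, with circles for set 1, triangles for set 2 and bars for mean ± SD. None passed; the Ctsb drug arrays, at 4826.8 to 7221.5, lie below the vehicle arrays, at 7267.2 to 9697.7, while the other panels show overlap between vehicle and at least 1 drug.

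More of the brighter members were lower than higher with each drug. The log2 difference was below 0 for 29 of 39 with pioglitazone (74.4%, against 53.6% of the 7071 brighter probe sets in all), for 27 with rosiglitazone (69.2% against 54.2%) and for 25 with troglitazone (64.1% against 50.9%). Their median log2 difference was -0.36 with pioglitazone, -0.30 with rosiglitazone and -0.16 with troglitazone, against -0.05, -0.05 and -0.01 of all brighter probe sets. The 3 comparisons share the vehicle arrays, so these are not separate observations. For the mean of the 3 drugs 24 of 39 were lower (61.5%, against 54.9% of all brighter probe sets). For a typical brighter member the 95% interval reached 1.16 to either side with pioglitazone and 1.01 with each of the others, so differences of this size could not be resolved gene by gene. The median of all tested probe sets with pioglitazone moved with scaling, at -0.08 as deposited and 0.06 after median centring, and that of the 90 members moved with it, at -0.21 and -0.12. Over all 90 members the median was -0.11 with rosiglitazone and -0.08 with troglitazone, against 0 and -0.03 of all tested probe sets. Without vehicle replicate 2 the members' median with rosiglitazone was -0.012, and without vehicle replicate 4 that with troglitazone was -0.00018. Without rosiglitazone and pioglitazone replicates 2 together, the members' median was -0.17 with pioglitazone and -0.07 with rosiglitazone. That of all tested probe sets was then -0.09 and -0.02.

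Troglitazone and pioglitazone were given at the same dose and time and can be compared directly, as 1 pair. Both share the thiazolidinedione ring, and they differ at the far end, a chroman in troglitazone and an ethylpyridine in pioglitazone. None of 90 members differed at an adjusted p under 0.05, against 0.0341% of all tested probe sets, and 7 had an unadjusted p under 0.05, against 6.35%. The difference of troglitazone over pioglitazone in Mmp11 was 0.66 on the log2 scale (95% interval 0.20 to 1.12, limma adjusted p = 0.582). In Serpinf1 it was 0.07 (-0.60 to 0.74) and in Cst3 -0.12 (-0.46 to 0.23), intervals that leave room for a difference in either direction. The others under an unadjusted 0.05 were Timp2 at 1.93 (0.39 to 3.47), Serpinf2 at 1.26 (0.19 to 2.33), Adam22 at 1.77 (0.32 to 3.21), Serpinh1 at 0.40 (0.01 to 0.80), Ctsd at -0.48 (-0.94 to -0.02) and Plaur at -0.84 (-1.65 to -0.04). Timp2 was at 268.8, 430 and 188.4 with troglitazone and at 82.9 and 79.9 with pioglitazone, barely over the floor on both pioglitazone arrays. Rosiglitazone was given at another dose, so its values stand beside the others with no test between them.

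Where a set could be compared with the other, the members that passed held their direction. They had been called from a fit over both sets, so this agreement was largely fixed in advance and is no separate support. None of the 90 members differed between the sets in its response, for either drug (0% of all tested probe sets too), and without adjustment 2 did with rosiglitazone, Timp2 and Plaur, against 3.72% of all, and 0 with troglitazone, against 2.45%. Set 2 has 1 array a group, which limits this test, and its higher beta-actin ratio cannot be told apart from the set. Over the 39 brighter members 28 had the same sign in both sets with rosiglitazone (71.8%, against 56.9% of all brighter probe sets) and 20 were lower in both (51.3% against 31.8%). With troglitazone 17 had the same sign (43.6% against 57.5%) and 11 were lower in both (28.2% against 29.9%). The size of the differences correlated weakly between the sets. With rosiglitazone the Pearson correlation was 0.18 (0.15 over all brighter probe sets) and the Spearman correlation 0.12 (0.17). With troglitazone these were 0.23 (0.19) and 0.03 (0.2).

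**Figure D4:**
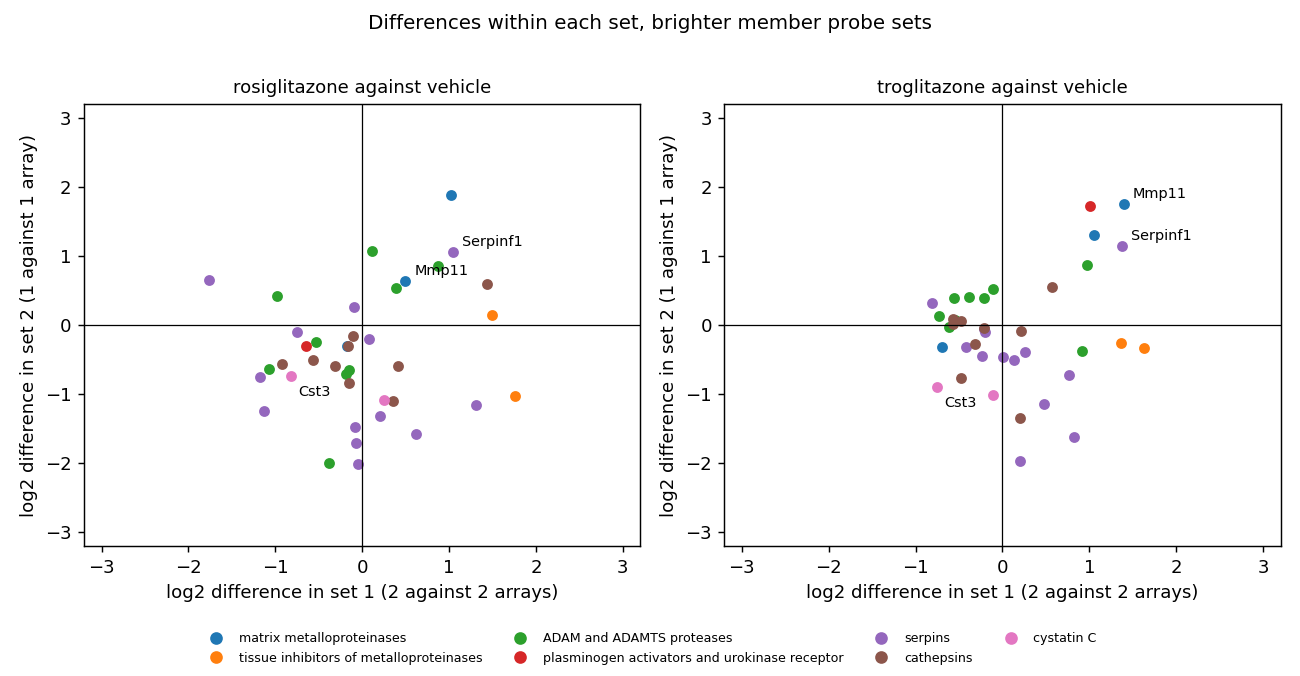
Log2 difference against vehicle within set 1 (x axis, 2 arrays against 2) and within set 2 (y axis, 1 array against 1) of each of the 39 brighter member probe sets, for rosiglitazone and troglitazone, coloured by role. Mmp11 and Serpinf1 lie in the upper right and Cst3 in the lower left of both panels; 28 points with rosiglitazone and 17 with troglitazone share their sign between the sets.

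Other genes of the same systems were listed beside the members. Of 50 listed partners of extracellular proteolysis, such as activating convertases, receptors, other inhibitors and matrix proteins, 43 were tested. With pioglitazone 0 passed (0.903% of all tested probe sets), with rosiglitazone 0 rose and 1 fell (0.571% of all fell), and with troglitazone 0 rose and 1 fell (0.554% of all fell). The gene was the same, Sparc, a collagen-binding matrix protein, with log2 differences of -0.89 ± 0.19 with rosiglitazone (limma adjusted p = 0.0259) and -1.07 ± 0.19 with troglitazone (0.00625). For the mean of the 3 drugs 3 of 43 fell, against 0.86% of all: Sparc, Lrpap1, a chaperone of the LRP receptors that clear protease-inhibitor complexes (-0.63, limma adjusted p = 0.0245), and Thbd, thrombomodulin (-1.63, 0.0325). The list median was -0.12 with pioglitazone, -0.11 with rosiglitazone and -0.26 with troglitazone, against -0.08, 0 and -0.03 of all tested probe sets. Sparc for the mean of the 3 drugs held without each array in turn but was lost with set 1 alone (limma adjusted p = 0.0701) and with no intensity trend (0.137). Its call with rosiglitazone was lost without rosiglitazone replicate 1 or 2 or any vehicle array (limma adjusted p up to 0.143) and that with troglitazone without troglitazone replicate 2 or 4 or vehicle replicate 2 (up to 0.0953). Lrpap1 was lost without 5 of the 11 arrays and Thbd without 9.

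Of 41 listed lysosomal proteins 31 were tested, as companions of the cathepsins. With troglitazone Npc1, a cholesterol exporter of the lysosome, rose by 1.20 on the log2 scale (limma adjusted p = 0.00219) and Lipa, lysosomal acid lipase, by 0.91 (0.0314), and 0 fell, so 2 of 31 rose against 0.775% of all tested probe sets. With rosiglitazone Npc2, the soluble partner of Npc1, fell by 0.78 (0.0178), 1 of 31 against 0.571% of all, and 0 rose, and with pioglitazone 0 passed. For the mean of the 3 drugs Lamp1 fell by 0.43 (0.0488) and Cd63 by 0.49 (0.0339), both membrane proteins of lysosomes, 2 of 31 against 0.86% of all. The list median was 0.01 with pioglitazone, -0.28 with rosiglitazone and -0.17 with troglitazone. Npc1 passed without each array in turn (limma adjusted p up to 0.048) but not with no set term (0.0568), set 1 alone (0.178), no intensity trend (0.127) or only the groups compared (0.112), whereas Npc2 was lost without 5 of the 11 arrays, Lipa and Cd63 without 8 each and Lamp1 without any of the 11.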

How the data were processed

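The samples were grouped by the drug in GEO's labels and the sets by the titles. The authors deposited 1 linear signal intensity per probe set and array, already scaled: the mean after trimming 2% of values at each end was 500.289 to 500.433 on every array. The array software is not given in the sources used here. On arrays, depth is signal over background, and the number of arrays limits precision.

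After 66 control probe sets were removed, signals were raised to the floor of 73.7, logged to base 2 and fitted in limma 3.58.1 (R 4.3.3), with a term per group and a set term on all 11 arrays (6 residual degrees of freedom), an intensity trend and two-sided tests. P-values were adjusted by Benjamini-Hochberg over 11739 probe sets within each of 7 contrasts: 3 drugs and their mean against vehicle, troglitazone against pioglitazone, and the set difference for rosiglitazone and for troglitazone. Within-set values come from a mean per group and set (4 residual degrees of freedom). "Rose", "fell" and "passed" mean an adjusted p under 0.05. Errors of log2 differences are standard errors, errors of signals are standard deviations, and fold changes are adjusted for the set. The code was tested on simulated data.

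Gene names come from GEO's platform annotation (10833 probe sets with 1 gene, 396 with several, 1193 with none). All 74 member genes matched GRCm38.p6 by gene identifier. Of several probe sets of a gene the brightest stands for it. For genes described by their values, others are given where they differ in call or direction. Suffixes such as _f_at, _i_at, _r_at and _s_at mark probe sets that depart from the standard design. Every member that passed was named, with 52 listed members whatever their test, of which 38 were tested, and up to 4 passing genes per companion list and comparison. Other genes, named by their single values, were chosen after their values were seen. Members and lists were chosen with earlier results of these data known, among them the rise of Mmp11 with troglitazone.

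Alternatives were quantile normalisation, median centring, floors of 32.2 and 207.4, no filter, no set term, set 1 alone, a replicate block, no trend, only the groups compared, without rosiglitazone and pioglitazone replicates 2, and without each array. Those of the companion genes were added after seeing the data.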

Additional observations from a re-analysis of the deposited data

How the results depend on the processing

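With pioglitazone 0 members passed, against 1 after quantile normalisation (Cst3), 2 after median centring (Mmp11 and Serpinf1) and 2 with no filter on dim probe sets (Mmp11 and Serpinh1); leaving out each array in turn gave 0 throughout. With rosiglitazone the 1 call, Cst3, became 0 with no filter, no set term, set 1 alone, no intensity trend, only the groups compared and without rosiglitazone and pioglitazone replicates 2, and ranged from 0 to 1 over the fits that left out an array. With troglitazone the 3 calls became 1, Mmp11, with no filter, no set term, set 1 alone, no intensity trend and only the groups compared, and ranged from 1 to 3 when an array was left out. For the mean of the 3 drugs the 3 calls became 1 (Mmp11) with no set term, 0 with set 1 alone and 0 with no intensity trend, ranged from 2 to 3 when an array was left out, and the fit of only the groups compared is the same fit. Troglitazone against pioglitazone and both set differences kept 0 member calls under all alternatives run. For troglitazone against pioglitazone 3 to 11 members had an unadjusted p under 0.05. The cause was not tested.

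The replicate number as a block in place of the set gave 1 member call with pioglitazone (Cst3, limma adjusted p = 0.0394), 1 with rosiglitazone, 3 with troglitazone and 3 for the mean of the 3 drugs. The numbers share no more than the set: replicate 1 minus replicate 2 correlated between groups at -0.0444 to 0.00994.

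No call was reversed. Of the values of named members under alternatives, 4038 kept their side of the threshold, 7 passed newly and 42 no longer passed. The 42 came from the 1 call with rosiglitazone and the 3 each with troglitazone and for the mean of the 3 drugs. Most of the 4038 belong to members that had not passed as reported, so they say little about how stable the calls were. Counts of all calls moved by more than 1.5 times under several settings. With no set term, set 1 alone and no intensity trend, in that order, they were 25, 23 and 6 with pioglitazone (106 as reported), 40, 19 and 6 with rosiglitazone (159), 55, 37 and 19 with troglitazone (156) and 84, 56 and 30 for the mean of the 3 drugs (251). With only the groups compared they were 0, 18 and 40 for the 3 drugs, and with no filter 99 with rosiglitazone and 89 with troglitazone. The floor hides falls of dim members.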
